A study of Danio rerio with 4 samples.

Results

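The repeats described here are 224 zebrafish DNA transposon names that are not named as hAT, Tc1/Mariner, EnSpm or Harbinger elements. They were taken by name alone from the 1821 repeat names counted, of which 1004 are transposons, and are all names that start with DNA, ACROBAT, ANGEL, Chaplin, Dada, IS4EU, Kolobok, LOOPER, Looper, MuDR, PROTOP, Polinton or piggyBac. Their levels were compared between larvae homozygous for *uhrf1*-hi272, a retroviral insertion allele of *uhrf1*, and siblings of normal appearance that were wild type or heterozygous for it. All larvae were 5 days post fertilization (dpf), each library came from a pool of 10 whole larvae sorted by appearance, and each group had 2 libraries of total RNA depleted of ribosomal RNA. The pools came from 2 clutches that are not tied to libraries by the labels, and a heterozygous share of each sibling pool is not given.

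DNA transposons move by cutting and pasting: a transposase binds the inverted repeats at both ends of the element, cuts it out and inserts it elsewhere. Many copies are nonautonomous, with the ends but no working transposase, and an N in a name marks such a family. Cytosine methylation is a main means by which vertebrate genomes keep transposons silent. Uhrf1 binds hemimethylated DNA after replication and recruits the maintenance methyltransferase Dnmt1, and the study's comparison bears on RNA from repeats when that gene is disrupted.

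The 224 names took 259477 and 305372 counts in siblings 1 and 2 and 606176 and 222080 counts in mutants 1 and 2. Gene counts, the scale for most values below, came to 4981004, 2996676, 9100665 and 3299449 in that order. Levels are given as counts per 1000000 gene counts, written gene CPM, and a single count was worth between 0.110 and 0.334 gene CPM. Sibling 2 stood apart, with 27.5 repeat counts per 100 gene counts against 13.9 in sibling 1, 18.7 in mutant 1 and 19.5 in mutant 2. The cause of that excess was not tested. Results are therefore given both in gene CPM and as a share of all transposon counts. The *uhrf1* gene had 95, 149, 303 and 84 counts, or 21.4, 46.8, 33.3 and 24.1 CPM after TMM scaling, and its groups overlapped. Its fitted log2 change was -0.21 with an SE of 0.35 (edgeR adjusted p = 0.765) and turned to 0.44 when sibling 2 was left out. It does not check the labels, so "mutant" means a library labelled mutant. All 12 markers of larval organs had counts in all 4 libraries, the lowest being 51, but 5 of them differed between the groups at an edgeR adjusted p under 0.05.

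Of those 5 markers, 4 were lower and 1 was higher in the mutants. The exocrine pancreas protease *prss1* stood at 5689 and 2553 CPM (TMM-scaled) in siblings 1 and 2 against 452 and 62.9 in mutants 1 and 2 (edgeR adjusted p = 0.0161). The intestinal *fabp2* stood at 330 and 263 against 74.2 and 57.4, the lens crystallin *cryba2a* at 869 and 573 against 97.1 and 91.3, and the cone *arr3a* at 154 and 118 against 46.8 and 39.3, all lower in both mutants (edgeR adjusted p of 0.000698, 0.000461 and 0.00174). The neutrophil peroxidase *mpx* was higher, at 14.6 and 16.0 against 64.4 and 78.7 (edgeR adjusted p = 0.000440). The other 7, markers of neurons, muscle, heart, skin, liver and erythrocytes, did not pass. Of these, the liver *fabp10a* came nearest, at 650 and 332 against 221 and 194 (edgeR adjusted p = 0.0505). The skin *krt4* and the erythrocyte *hbae1.1* were also lower in both mutants than in both siblings, and the rest overlapped. The part of these differences in the repeat values and in the gene values below was not tested.

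Relative to gene counts, the DNA transposons in the mutants lay between the siblings. Summed over the 224 names, they came to 52093 and 101904 gene CPM in siblings 1 and 2, and to 66608 and 67308 gene CPM in mutants 1 and 2. The 2 mutants were close to each other and the 2 siblings were far apart. The means were 76998 ± 35221 (SD, n = 2) in siblings and 66958 ± 495 (SD, n = 2) in mutants, a log2 ratio of -0.20. That ratio turned to 0.36 without sibling 2 and was -0.61 without sibling 1, so its direction rests on which sibling pool is read. In whole larvae, fewer cells of a type and less RNA per cell cannot be told apart. No test was made of this sum, since the smallest p of an exact two-sided permutation of 2 libraries against 2 is 0.333.

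As a share of transposon counts, the DNA transposons were slightly lower in both mutants. They made up 38.6% and 38.4% in siblings 1 and 2 and 36.7% and 35.6% in mutants 1 and 2. The groups did not overlap, and the means of 38.5% ± 0.129 (SD, n = 2) and 36.1% ± 0.761 (SD, n = 2) gave a difference, mutant minus sibling, of -2.38 percentage points. With any 1 library left out it stayed below 0, at -1.84 to -2.92 points.

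Other transposon classes differed in share too. LTR-type retrotransposons copy themselves through RNA, and most are flanked by long terminal repeats. They held 11.1% and 10.7% of transposon counts in siblings 1 and 2 and 14.4% and 15.7% in mutants 1 and 2. Shares sum to 100%, so a higher share of 1 class comes with a lower summed share of the others. hAT names, named after the hobo, Ac and Tam3 elements, held 17.0% and 17.8% in the siblings and 16.5% and 16.1% in the mutants. Tc1/Mariner names held 15.1% and 15.1% against 14.7% and 14.5%, and EnSpm and Harbinger names together held 6.40% and 6.42% against 6.17% and 6.15%. All 3 of these classes were thus also lower in both mutants. With LTR-type names left out of the denominator, a setting added after the data were seen, the 224 names held 43.4% and 43.0% in the siblings and 42.8% and 42.2% in the mutants. Their difference was then -0.69 points in place of -2.38, with both mutants still lower. Sibling 2 and mutant 1 lay closer together there than the 2 siblings or the 2 mutants did, so that order rests on little. The other 3 classes did not keep that order. On this denominator Tc1/Mariner names were higher in both mutants, at 17.0% and 16.9% in the siblings against 17.1% and 17.2%. hAT names overlapped (19.1% and 19.9% against 19.2% and 19.1%), as did EnSpm and Harbinger names (7.21% and 7.19% against 7.20% and 7.30%). The transposon names in none of these classes were higher in both mutants, at 13.3% and 13.0% against 13.6% and 14.1%.

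**Figure D1:**
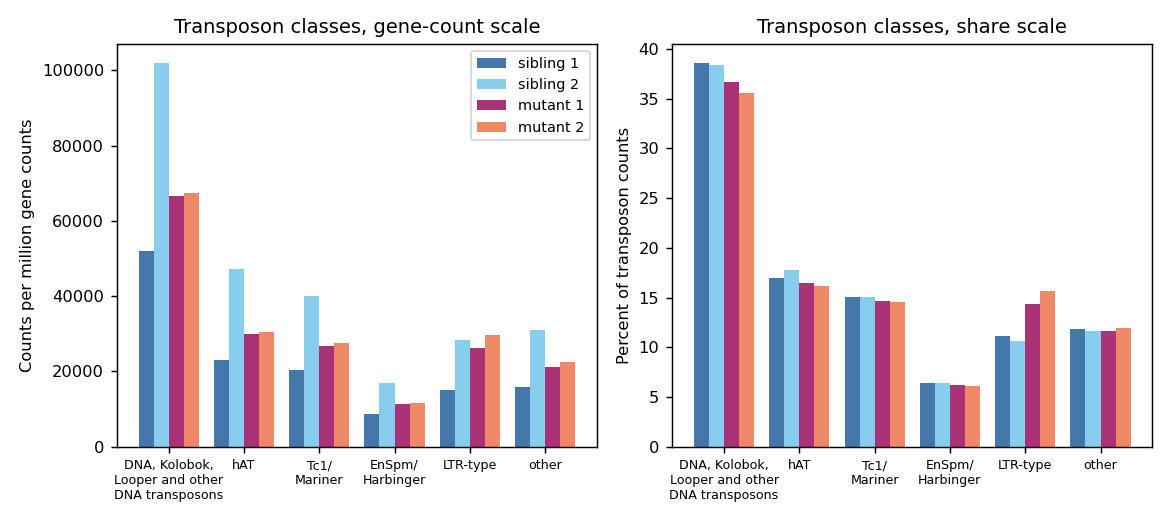
Transposon classes in each library, in gene CPM (left) and as a percent of all transposon counts (right), with 1 bar per library. On the left, sibling 2 has the tallest bar of the DNA transposon classes, and the 224 names stand at 52093, 101904, 66608 and 67308. On the right, the LTR-type share is higher in both mutants (14.4% and 15.7%) than in both siblings (11.1% and 10.7%), and the other 4 named classes are lower.

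Nearly every name shared the spread between the sibling pools. In gene CPM, 220 of the 224 were higher in sibling 2 than in sibling 1. The other 4 were Chaplin1B_DR, DNA-2-26_DR and Dada-U6_DR, which were lower in sibling 2, and DNA-TTAA0-7_DR, which had no count in either sibling. The median ratio of sibling 2 to sibling 1 over the tested names was 2.02 (quartiles 1.87 and 2.18), and that of mutant 2 to mutant 1 was 1.03 (quartiles 0.943 and 1.08). Both mutants lay between the siblings for 206 names. Both lay below both siblings for 4 tested names and above both for 0, while 3.6% of all 1029 repeats tested lay below and 8.07% above.

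**Figure D2:**
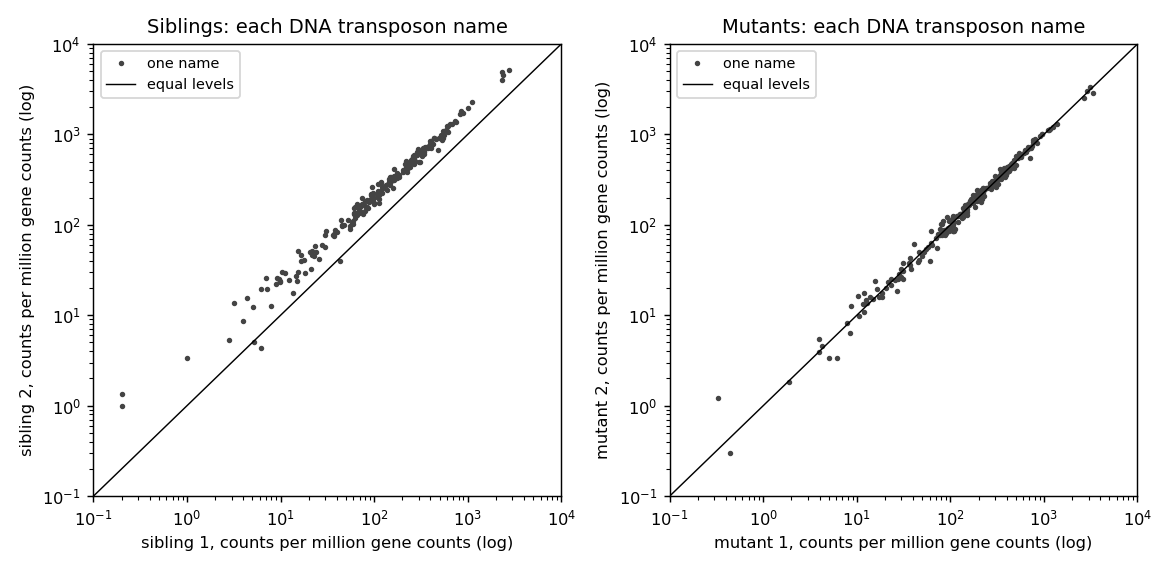
Gene CPM of each DNA transposon name (log axes), sibling 2 against sibling 1 (left) and mutant 2 against mutant 1 (right), with 1 point per name and a line of equal levels. Siblings lie off the line by a median ratio of 2.02, and mutants lie along it with a median ratio of 1.03.

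No DNA transposon name passed the test. Of the 224, 220 had enough counts to be tested. The 4 left out were Chaplin1A_DR with 1, 3, 3 and 4 counts in siblings 1 and 2 and mutants 1 and 2, Polinton-2_DR with 1, 4, 4 and 1, DNA-8-10_DR with 5, 10, 17 and 6, and DNA-TTAA0-7_DR with 1 count, in mutant 1. With edgeR's quasi-likelihood test on the scale of the gene library sizes, 0 of the 220 passed a Benjamini-Hochberg adjusted p of 0.05 over all repeats, and 0 had an unadjusted p under 0.05. Of all 1029 repeats tested, 0.292% were called higher and 0.194% lower. DESeq2 called 0 of the names, with 1 at an unadjusted p under 0.05. The fitted log2 fold changes ran from -0.82 to 0.31 with a median SE of 0.50, and 208 were below 0. Their median was -0.23, near those of hAT (-0.21), Tc1/Mariner (-0.24) and EnSpm/Harbinger names (-0.21), beside -0.15 over all repeats tested and 0.07 for LTR-type names. Without sibling 1, the single sibling left was sibling 2, the library with the most repeat counts per gene count. The median log2 fold change of the names was then -0.57 on this scale and -0.09 on the scale of transposon counts. Names were called lower in that fit on the gene scale, as were other repeats. Without sibling 2 the median on the gene scale was 0.20, and no name was called. Since no label says that the pools are independent, the p-values speak only for the spread between them.

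On the scale of transposon counts, in which each library's total is equal, the fold changes lay higher and their errors were narrower. They ran from -0.66 to 0.46, with a median of -0.07 and a median SE of 0.11, and 159 were below 0 and 61 above. The median over all repeats moved by 0.15 between the scales, to -0.01. Again 0 of the 220 passed (lowest edgeR adjusted p = 0.112), while 1.66% of 1027 repeats were called higher and 0.0974% lower. At an unadjusted p under 0.05 there were 23 names, 20 lower and 3 higher, which is 10.5% of the names beside 13.1% of all repeats. Adding the replicate number as a block gave 10 names called lower and 1 higher, beside 23 lower and 63 higher over all repeats. No label says that these numbers pair the libraries, so the fit without a block is the one read here. Some names were called lower on this scale with 1 library left out. They were Dada-U6_DR (log2 fold change -1.06) and DNA-8-5_DR (-0.81) without sibling 2, and DNA-5-8_DR (-0.59) without mutant 1. The share of all repeats called in these settings is not given, so no rate is read from them. Each of these fits left 1 library in a group. With all 4 libraries the log2 fold changes were -0.61 for Dada-U6_DR, -0.57 for DNA-8-5_DR and -0.34 for DNA-5-8_DR. None of these passed (edgeR adjusted p of 0.478, 0.162 and 0.329). In share, Dada-U6_DR stood at 0.0321% in sibling 1 and 0.0151% in sibling 2. DNA-5-8_DR stood at 0.392% in mutant 1 and 0.286% in mutant 2.

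**Figure D3:**
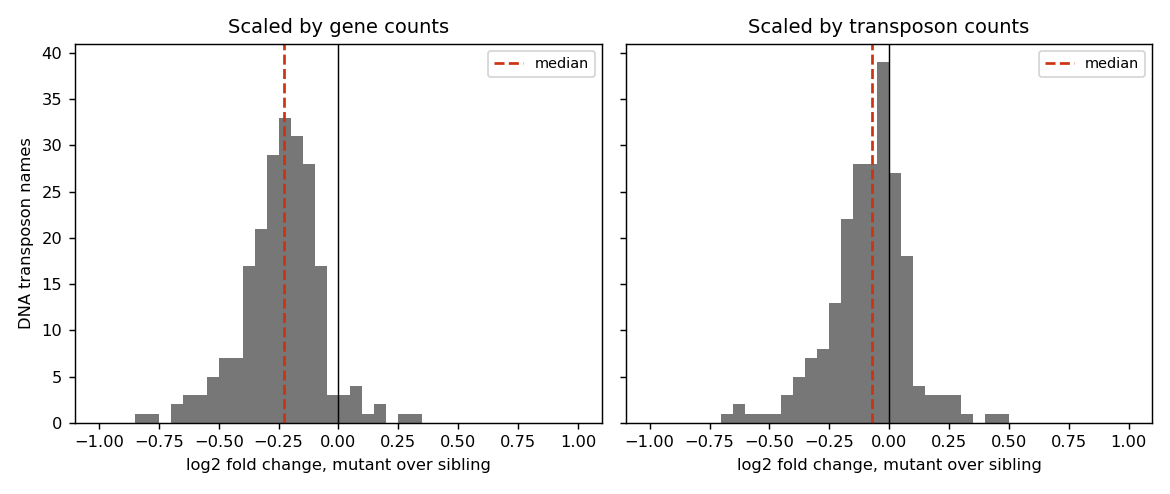
Histograms of the log2 fold change, mutant over sibling, of the 220 tested DNA transposon names, fitted on the scale of gene counts (left) and of transposon counts (right), with the median as a dashed line. The median is -0.23 on the left and -0.07 on the right.

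Counted name by name, more of the shares were lower than higher in both mutants. Both mutants lay below both siblings in share for 84 of the 220 tested names (38.2%), where 21.8% of all repeats did, and above for 16 (7.27%), where 23.3% of all repeats did. With LTR-type names out of the denominator the counts were 45 below (20.5%) and 41 above (18.6%). Of all 621 tested repeats that are not LTR-type, the 220 names included, 17.6% lay below and 20.9% above. Both shares of names then lay within a few points of that background. The size of the shifts was modest: the median absolute log2 difference in share was 0.11 between the siblings, 0.10 between the mutants and 0.10 between the group means. The values within groups compare single libraries. The last compares group means, which vary less than single libraries do, so the values are not on an equal footing.

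The 179 names that begin with DNA are put in no superfamily by name and may include hAT, Tc1/Mariner, EnSpm or Harbinger elements. This group held most of the counts. It took 26.6% and 26.9% of transposon counts in siblings 1 and 2 and 25.5% and 25.05% in mutants 1 and 2, so both mutants were lower. Of its 177 tested names, 66 were lower in share in both mutants and 12 higher. These counts and those by series below stand beside 21.8% of all repeats below and 23.3% above, and come from the denominator that includes LTR-type names, without which the 220 names split into 45 below and 41 above. The next part of the name divides the group into series, and the series did not all have the same order. In the DNA-2 series of 34 names, 19 were lower in both mutants and 1 was higher, and its summed share was 2.33% and 2.44% in the siblings and 2.22% and 2.09% in the mutants. In the DNA-X series of 13 names, 6 were lower and 0 higher, at 4.15% and 4.15% against 3.95% and 3.83%. In the DNA-4 series of 5 names, 4 were lower and 0 higher. The 36 names of the DNA-8 series, the most numerous, had 11 lower and 1 higher, and summed to 4.90% and 4.86% against 4.56% and 4.66%. The DNA-1 series of 12 names overlapped between groups (1.96% and 1.90% against 1.93% and 1.91%), with 2 lower and 2 higher. Of the other series of at least 5 names, DNA-TA, DNA-TTAA0 and the names made of DNA, a number and TA overlapped in summed share too. DNA-TTAA0, for example, held 0.248% and 0.298% against 0.269% and 0.230%. The DNA-3, DNA-5, DNA-6, DNA2 and DNA8 series were lower in summed share in both mutants. The DNA-TTAA series of 2 names was higher in both mutants, at 0.579% and 0.559% against 0.598% and 0.600%, and 1 of its names, DNA-TTAA-2_DR, was higher on its own.

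Counts were concentrated in a few names: the 4 with the most counts took 18.2% of the total of the 224 and the 10 with the most took 28.7%, while the median name had 3352 counts over the 4 libraries. Counts of a name rise with the length and number of its copies, which the table does not give, so names are compared across libraries and not with each other. After ANGEL, the next was DNA9NNN1_DR, at 2326, 4929, 3101 and 3353 gene CPM and at 1.72%, 1.86%, 1.71% and 1.77% of transposon counts, an overlap of the groups on both scales. DNA-X-4_DR stood at 1.75% and 1.69% in the siblings and 1.59% and 1.58% in the mutants, lower in both. DNAX-1_DR was lower by more, at 0.832% and 0.859% against 0.759% and 0.681% (log2 fold change -0.23, SE 0.07, edgeR adjusted p = 0.250, transposon scale). DNA-8-14_DR, at 0.557% and 0.514% against 0.526% and 0.528%, overlapped. The names lower in share in both mutants held 51.8% of all counts of the 224, and those higher in both held 6.49%. Both values rest on the denominator that includes LTR-type names and were not computed without it or over all repeats.

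The Kolobok, Looper and piggyBac elements, grouped here by name and with transposases that insert at the bases TTAA, were lower in share together, but single names differed. These shares come from the denominator that includes LTR-type names, and shares of these groups without those names were not computed. The counts of names here stand beside 21.8% of all repeats below and 23.3% above. Without LTR-type names, the 220 tested names split into 45 below and 41 above. Kolobok's 11 names held 4.63% and 4.35% in siblings 1 and 2 and 4.29% and 4.10% in mutants 1 and 2, and 6 were lower in both mutants and 1 higher. Its most counted name, Kolobok-N1_DR, stood at 1.73%, 1.51%, 1.49% and 1.35%, so that sibling 2 and mutant 1 nearly met. The higher name was Kolobok-1N1_DR, at 0.279% and 0.266% in the siblings and 0.290% and 0.292% in the mutants. The 10 Looper names held 3.65% and 3.60% against 3.53% and 3.42%, with 4 lower and 1 higher. LOOPERN6_DR, with the most counts among them, stood at 0.742% and 0.744% against 0.692% and 0.635%, whereas LOOPERN2_DR was higher in both mutants at 0.272% and 0.275% against 0.278% and 0.305%. The 5 piggyBac names, whose type element came from a moth, held 0.367% and 0.430% in the siblings and 0.365% and 0.367% in the mutants. Mutant 2 was below sibling 1 there by less than the printed digits show, so that order rests on very little. Per name, piggyBac-N1_DR stood at 141, 286, 189 and 199 gene CPM, piggyBac-N2_DR at 119.7, 299, 159 and 165, and piggyBac-N3_DR at 37.1, 78.4, 45.6 and 38.5. piggyBac-N4_DR stood at 118, 293, 159 and 171, and piggyBac-N5_DR at 80.3, 186, 111 and 121. Both mutants lay between the siblings for each of the 5. All 5 carry an N, and 2 of them were lower in both mutants and 0 higher.

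Of the names outside the DNA, ACROBAT, ANGEL and Chaplin groups, 29 carry the N of nonautonomous families and 11 do not. Those with N held 9.10% and 8.78% of transposon counts in the siblings and 8.58% and 8.27% in the mutants. Those without N held 0.622% and 0.614% against 0.592% and 0.573%. Both sets were thus lower in both mutants, with LTR-type names in the denominator. Shares of the 2 sets without LTR-type names were not computed. Their median log2 fold changes on the gene scale were -0.23 with N and -0.19 without.

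ANGEL, a short nonautonomous element with inverted repeats described in zebrafish, had the most counts of any of the 224 names, 4.99% of their total. It stood at 2785 and 5214 gene CPM in siblings 1 and 2 and at 3363 and 2872 gene CPM in mutants 1 and 2. The mutants lay between the siblings. Its share was 2.06%, 1.96%, 1.85% and 1.52% in the same order, lowest in mutant 2. On the gene scale it changed by -0.40 in log2 (SE 0.48, edgeR adjusted p = 0.998) and on the transposon scale by -0.26 (SE 0.10, edgeR adjusted p = 0.326). It did not pass on either scale.

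Dada transposons insert into multicopy small RNA genes, and their names carry the target, U1 and U6 small nuclear RNA genes or transfer RNA genes. The 6 names together held 0.430% and 0.417% in siblings 1 and 2 and 0.393% and 0.363% in mutants 1 and 2. Dada-U1A_DR had most of these counts, at 388, 740, 500 and 457 gene CPM. Dada-U6_DR went against the sibling spread, with 216, 120, 271 and 88 counts, or 43.4 and 40.0 gene CPM in the siblings and 29.8 and 26.7 in the mutants. Both mutants were below both siblings on that scale, but in share sibling 2 (0.0151%) lay between mutant 1 (0.0164%) and mutant 2 (0.0141%). The fitted log2 change on the gene scale was -0.65 with an SE of 0.51 (edgeR adjusted p = 0.998). The nonautonomous Dada-U6N1_DR stood at 45.8 and 98.4 in the siblings against 54.9 and 54.6 in the mutants, and did not share that order. Dada-tL_DR stood at 83.7, 188, 103 and 115 gene CPM, Dada-tA_DR at 4.42, 15.4, 10.5 and 9.70, and Dada-U1B_DR at 15.1, 24.0, 15.5 and 23.6. For these 3 both mutants lay between the siblings.

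Polintons are large elements that encode their own DNA polymerase and an integrase of retroviral type, and so do not cut and paste. Their 4 names held 0.188% and 0.210% in the siblings and 0.187% and 0.203% in the mutants, an overlap. Polinton-1_DR stood at 136, 273, 174 and 211 gene CPM, and its log2 fold change turned from -0.13 on the gene scale to 0.02 on the transposon scale. Polinton-1N1_DR stood at 65.2, 168, 101 and 112, and Polinton-2N1_DR at 52.8, 114, 64.1 and 60.3. Of the 3 tested Polinton names, 1 was lower in share in both mutants and 0 higher, where 21.8% and 23.3% of all repeats were.

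The remaining groups were small. PROTOP1_DR, a relative of the P element known from Drosophila, stood at 62.4, 118, 76.6 and 76.7 gene CPM and at 0.0462%, 0.0445%, 0.0421% and 0.0405% of transposon counts. MuDR-N1_DR, a relative of maize Mutator, stood at 525, 868, 619 and 621 gene CPM. Its share in mutant 2 (0.328%) was just above that in sibling 2 (0.327%), so its groups overlapped. The 2 IS4EU names, which resemble bacterial IS4 elements, held 0.0144% and 0.0184% in the siblings and 0.0167% and 0.0187% in the mutants. IS4EU-1_DR stood at 9.64, 25.4, 13.8 and 15.8 gene CPM and IS4EU-2_DR at 9.84, 23.4, 16.6 and 19.7. IS4EU-2_DR alone was higher in share in both mutants, on 49, 70, 151 and 65 counts. The 2 Chaplin names held at most 0.00402%, and Chaplin1B_DR, with 26, 15, 46 and 11 counts, had a log2 fold change of -0.33 with an SE of 0.67. ACROBAT was the single group of the 12 with a higher summed share in both mutants, at 0.154% and 0.142% against 0.159% and 0.169%. Of its 2 names, ACROBAT2 stood at 100.2, 172, 121 and 126 gene CPM with an overlap in share, and ACROBAT1 is described below. Over the 12 groups, 7 were lower in share in both mutants, 1 was higher and 4 overlapped, with LTR-type names in the denominator. Group shares without LTR-type names were not computed. In gene CPM, 11 groups had both mutants between the siblings.

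**Figure D4:**
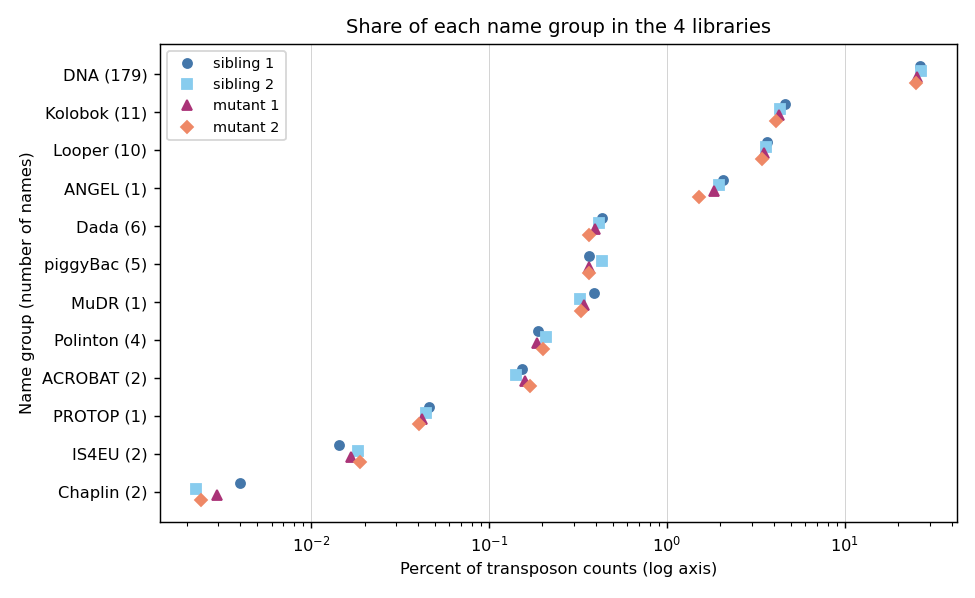
Share of transposon counts (log axis) of the 12 name groups in each library, with the number of names in brackets and 1 symbol per library. Groups span from at most 0.00402% (Chaplin) to 26.9% (DNA), so differences within a group look small on this axis. Chaplin, for example, ran from 0.00226% in sibling 2 to 0.00402% in sibling 1.

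A few names stood out for low p on the transposon scale and were chosen after their values were seen. The lowest was DNA-2-28_DR, with 293, 303, 418 and 164 counts. Its share was 0.0436% and 0.0381% in siblings 1 and 2 and 0.0253% and 0.0263% in mutants 1 and 2, and its level was 58.8 and 101 gene CPM against 45.9 and 49.7. Both mutants were thus below both siblings on both scales. In log2 it differed by -0.66 on the transposon scale (SE 0.15, edgeR adjusted p = 0.112) and by -0.79 on the gene scale (SE 0.51, edgeR adjusted p = 0.998). DNA-8-5_DR had the same order, with 479 and 666 gene CPM against 341 and 416, and shares of 0.355% and 0.251% against 0.188% and 0.220%. DNA-2-26_DR was the other name of the DNA group below both siblings in gene CPM, on 31, 13, 36 and 13 counts. It was listed for that order and not for a low p (edgeR unadjusted p = 0.365, transposon scale). Its shares overlapped, at 0.00461% and 0.00163% in the siblings against 0.00218% and 0.00208% in the mutants. DNA-4-1_DR and DNA-2-4_DR followed in share, at log2 fold changes of -0.38 (SE 0.10) and -0.34 (SE 0.09) on the transposon scale. With the replicate number as a block, a pairing that no label gives, DNA-2-28_DR, DNA-8-5_DR, DNA-4-1_DR and DNA-2-4_DR passed on that scale. DNA-2-26_DR did not.

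In the other direction, DNA-1-5_DR stood at 0.149% and 0.146% in the siblings and 0.178% and 0.171% in the mutants (0.24 in log2, SE 0.08, edgeR adjusted p = 0.250, transposon scale). ACROBAT1 stood at 0.0797% and 0.0768% against 0.0925% and 0.103% (0.31, SE 0.11, edgeR adjusted p = 0.274). DNA9TA1_DR stood at 0.0326% and 0.0425% against 0.0461% and 0.0577% (0.46, SE 0.18, edgeR adjusted p = 0.329). All 3 were higher in both mutants in share, but on the gene scale their mutants lay between the siblings. ACROBAT1, for example, stood at 108, 204, 168 and 194 gene CPM. Of the 3, DNA9TA1_DR alone passed on the transposon scale with the replicate number as a block.

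**Figure D5:**
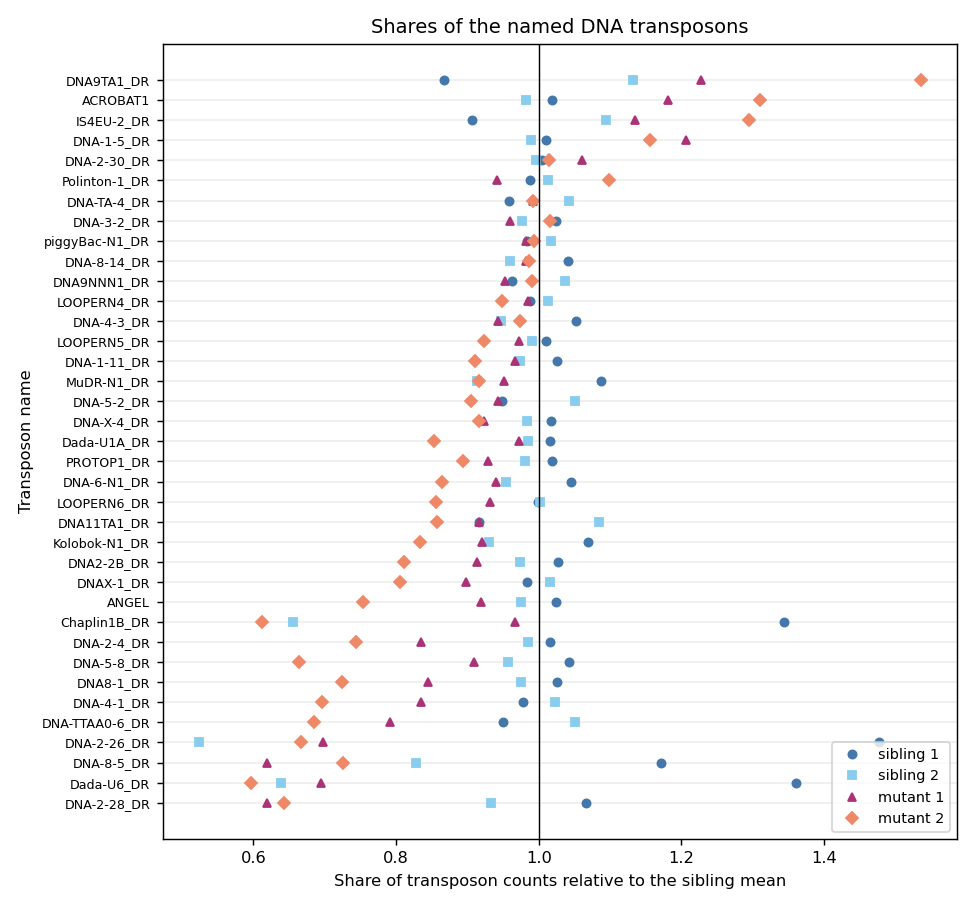
Share of transposon counts of the 37 individually tabulated DNA transposon names in each library, divided by the mean of the 2 siblings, with 1 symbol per library and a line at 1. Names are ordered by the mutants' mean, with DNA-2-28_DR (0.0253% and 0.0263% in the mutants) lowest and DNA9TA1_DR (0.0461% and 0.0577%) highest.

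Transposases also gave rise to host genes, and a list of 22 such symbols was examined. Among the genes counted, 14 matched and 12 could be tested, and 1 fell while 0 rose, where 4.58% of 12786 genes were called higher and 3.79% lower. Their median log2 fold change was -0.23, beside 0.00 over all genes. The gene that fell was *rag1*, a transposase-derived recombinase that cuts antigen receptor genes in developing lymphocytes. It had 23, 28, 12 and 5 counts, or 5.18 and 8.79 CPM (TMM-scaled) for the sibling pools against 1.32 and 1.44 for the mutant pools. The log2 difference was -2.32 with an SE of 0.52 (edgeR adjusted p = 0.0226). Its call rested on few counts and was lost without sibling 2 (edgeR adjusted p = 0.104), without mutant 1 (0.104) and without mutant 2 (0.0770). Organ markers (*prss1*, *fabp2*, *cryba2a*, *arr3a* and *mpx*) differed between the same groups, and their part in this difference was not tested. Its partner *rag2*, with 7, 9, 10 and 2 counts, was too low to test. Relatives of the superfamilies described above did not pass the test: *pgbd5*, derived from a piggyBac transposase, stood at 12.4 and 17.0 CPM against 13.7 and 12.9 (log2 fold change -0.12, SE 0.30, edgeR adjusted p = 0.851). *thap12a*, which carries the DNA-binding domain of P element transposases, stood at 39.2 and 41.1 against 44.0 and 42.8 (0.11, SE 0.21, edgeR adjusted p = 0.793). Among the other tested genes of its family, *thap3* had a log2 fold change of 0.26. Those of *thap4*, *thap7*, *thap11* and *thap12b* were -0.63, -0.17, -0.39 and -0.36, and none passed.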

How the data were processed

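Whole-number counts per RefSeq accession and per repeat name were deposited, made by the authors from total RNA of the 4 larval pools. The tools that the submitters' processing notes list are Bowtie2 2.1.0, HTSeq and DESeq2, with build GRCz10 and no role or order. Annotation, strand and the treatment of reads that map to several copies are not given in the sources used, so counts of near-identical families can be split between names. Transposons were taken by name as all repeats other than simple and low-complexity repeats, satellites and RNA genes, and LOOPER and Looper were joined, giving 12 name groups. LTR-type names were those that start with Gypsy, BEL, BHIKHARI, Copia, DIRS, Ngaro, ERV, ZFERV, CATCH, LTR or SUSHI. Symbols came from RefSeq (assembly GRCz12tu, names alone) for 14472 of 15171 gene rows.

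The whole repeat table was fitted in edgeR 4.0.16 under R 4.3.3, with repeats kept by filterByExpr and glmQLFit and glmQLFTest run without a block. Library sizes were the TMM effective sizes of the gene table (gene scale) or total transposon counts (transposon scale). P-values were adjusted by Benjamini-Hochberg over all repeats tested, and 0.05 was the threshold. Gene CPM uses the gene table's plain total. The standard error (SE) was taken as |log2 fold change| over the root of F. The test was run on simulated data with less spread than the repeats had on the gene scale and no shift of a whole library. That run therefore does not check the test under the spread between the siblings. Alternatives were DESeq2 1.42.0, other scalings, filters and denominators, the replicate number as a block, and leaving out each library. The biological coefficient of variation of repeats was 30.6% on the gene scale and 14.5% on the transposon scale. Sums got no test. Names tabulated singly were those past the threshold, the 10 with the most counts and the most counted of each group or series of at least 5, plus others chosen after their values were seen: 3 per direction by lowest p on the transposon scale, those below both siblings in gene CPM, and those called with 1 library left out. Groups of at most 6 names are given in full. The names and lists were chosen with earlier results of these data known. No column was left unused. Replicates differed beyond counting noise, with a chi-square per degree of freedom over repeats of 7.89 for siblings and 8.34 for mutants.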

Additional observations from a re-analysis of the deposited data

How the results depend on the processing

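On the gene scale, 0 names were called under every alternative that kept all 4 libraries (gene totals with no TMM, TMM over the repeat table, DESeq2, no count filter, at least 50 counts in 2 libraries, the replicate block), and between 0 and 163 with 1 library left out. On the transposon scale, leaving out 1 library was a setting added after the data were seen. Dada-U6_DR and DNA-8-5_DR were called without sibling 2 and DNA-5-8_DR without mutant 1. No name was called without sibling 1 or mutant 2. The share of all repeats called in these settings is not given. The replicate number as a block changed no call on the gene scale and gave 11 on the transposon scale, 10 lower and 1 higher, beside 23 lower and 63 higher over all repeats. Those 11 were DNA-2-4_DR, DNA-2-10_DR, DNA-2-17_DR, DNA-2-28_DR, DNA-4-1_DR, DNA-5-8_DR, DNA-8-2_DR, DNA-8-5_DR, DNA-TTAA0-6_DR and DNA8-1_DR, lower, and DNA9TA1_DR, higher. Same-numbered libraries deviated together with a correlation of 0.22 over repeats and 0.24 over genes, but with 2 pairs and no label behind them the numbers are not taken as pairing. The log2 ratio of the summed gene CPM ran from -0.61 to 0.36 with 1 library left out, and the share difference was -0.69 points with LTR-type names out of the denominator against -2.38. Names lower in share in both mutants numbered 110 to 135 with 1 library left out, and names higher 31 to 54, since fewer libraries then have to be ordered. These counts keep LTR-type names in the denominator. Without those names, all 4 libraries gave 45 lower and 41 higher. The same counts over all repeats with 1 library left out are not given. Calls among transposase-derived genes ran from 0 to 1, and the log2 fold change of *uhrf1* from -0.69 to 0.44. The signs turned for Polinton-1_DR (0.018), DNA-2-30_DR (0.048) with TMM over the repeat table, Polinton-1_DR (0.025), DNA-2-30_DR (0.054) with the transposon total and Polinton-1_DR (0.023), DNA-2-30_DR (0.054) with that total and the block. Without sibling 2, 21 of the 37 tabulated names turned sign, and without sibling 1, 4 did. With 1 library left out, the log2 fold changes of the names that turned were, as lowest to highest, ACROBAT1 (-0.13 to 0.54), DNA-1-11_DR (-0.53 to 0.12), DNA-1-5_DR (-0.22 to 0.48), DNA-2-30_DR (-0.41 to 0.30), DNA-3-2_DR (-0.46 to 0.20), DNA-4-3_DR (-0.46 to 0.11), DNA-5-2_DR (-0.66 to 0.21), DNA-6-N1_DR (-0.55 to 0.041), DNA-8-14_DR (-0.44 to 0.17), DNA-TA-4_DR (-0.54 to 0.30), DNA-X-4_DR (-0.57 to 0.11), DNA11TA1_DR (-0.76 to 0.21), DNA2-2B_DR (-0.65 to 0.0023), DNA9NNN1_DR (-0.57 to 0.26), DNA9TA1_DR (-0.20 to 0.91), DNAX-1_DR (-0.73 to 0.044), Dada-U1A_DR (-0.58 to 0.10), IS4EU-2_DR (-0.33 to 0.66), LOOPERN4_DR (-0.54 to 0.22), LOOPERN5_DR (-0.54 to 0.16), LOOPERN6_DR (-0.64 to 0.092), MuDR-N1_DR (-0.44 to 0.033), PROTOP1_DR (-0.58 to 0.091), Polinton-1_DR (-0.47 to 0.29), piggyBac-N1_DR (-0.52 to 0.26). Names that turned on the transposon scale were, without sibling 1, DNA-8-14_DR (0.037), Chaplin1B_DR (0.33), MuDR-N1_DR (0.033), Polinton-1_DR (0.0056), DNA-2-30_DR (0.060), DNA-3-2_DR (0.016), DNA-4-3_DR (0.016), DNA-2-26_DR (0.39), Dada-U6_DR (0.024). Without sibling 2, they were DNA9NNN1_DR (0.013), Polinton-1_DR (0.043), piggyBac-N1_DR (0.0054), DNA-2-30_DR (0.049), DNA-TA-4_DR (0.050). Without mutant 1, they were Polinton-1_DR (0.13), DNA-2-30_DR (0.021), DNA-3-2_DR (0.024), and without mutant 2, DNA-2-30_DR (0.086). The causes of these turns were not tested. A library left alone in its group is assumed to vary like the other group. Depth limits the 7 names with under 100 counts, and the gene scale's median SE of 0.50 limits all.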
